A study of Mus musculus with 36 samples.

Results

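The 9 genes described here encode mitochondrial enzymes that burn acetyl groups and ketone bodies. Cs, Idh3a, Idh3b, Ogdh, Suclg1, Fh1 and Mdh2 belong to the tricarboxylic acid (TCA) cycle, and Bdh1 and Oxct1 to ketone body use. They were chosen by symbol, with knowledge that Bdh1 was lower in Mir324-null osteoclast cultures than in wild-type ones. All 9 were found among the 30205 genes to which the deposited transcripts were summed.

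The libraries came from primary bone cells of mice aged 20 weeks, either wild-type controls (WT) or Mir324-null (null), with 6 libraries in each of 6 groups. Marrow was first expanded for 3 days in M-CSF at 100 ng/mL, a growth factor for macrophages, so every macrophage and osteoclast culture had seen M-CSF. Bone marrow macrophages (BMM) then had 5 days in 30 ng/mL M-CSF alone, and osteoclast cultures (OC) had the same M-CSF plus the osteoclast-inducing cytokine RANK-L at 50 ng/mL for those 5 days. Osteoblast cultures (OB) grew out of collagenase-treated bone chips over about 6 weeks and spent 18 days in medium with 2 mM β-glycerophosphate and 50 µg/mL ascorbic acid. The labels give no strain, sex or allele design, and they do not say whether libraries of a group came from separate animals, so p-values measure the spread between libraries, which may be in part technical. No level of the microRNA was read here, and genotype was taken from the labels alone.

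The TCA cycle condenses acetyl-CoA with oxaloacetate and oxidises the product in a ring of reactions whose electrons feed the respiratory chain. Ketone bodies are a circulating fuel made mainly in the liver: BDH1 converts β-hydroxybutyrate to acetoacetate, OXCT1 activates acetoacetate with the CoA of succinyl-CoA, a TCA intermediate, and the product is split to acetyl-CoA. Osteoclasts are known as cells rich in mitochondria, formed when macrophage precursors fuse under RANK-L.

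A microRNA guides silencing complexes to messenger RNAs through its seed, bases 2 to 8, so the mature sequences from the gene named in the null genotype are shown with the seed in capitals. Both are on the plus strand of chromosome 11 (RefSeq, GRCm38.p6), and their seeds differ.
mmu-miR-324-5p, chr11:70012060-70012082: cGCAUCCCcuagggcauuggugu
mmu-miR-324-3p, chr11:70012095-70012114: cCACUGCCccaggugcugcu

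For each of the 9 genes, the 3′ UTR with the greatest annotated length was searched on the transcript strand for the complements of the seeds, GGGATGC for the 5p arm and GGCAGTG for the 3p arm. Bdh1 and Oxct1 held matches, and the 7 TCA genes held none. For Suclg1 and Mdh2 this window belongs to transcripts annotated for nonsense-mediated decay, and a search of every annotated 3′ UTR of the deposited transcripts, added after seeing the data, also found no match in the 7 TCA genes. Each match is printed in capitals with 10 bases on either side (GRCm38, plus strand), because these are the matches found in the windows searched.
Bdh1, 3p match, chr16:31458523-31458549: ctacactcctGGCAGTGtctagcctga
Bdh1, 3p match, chr16:31458598-31458624: ggcgggtgcaGGCAGTGctgagacaaa
Bdh1, 5p match, chr16:31458785-31458811: acctgacagcGGGATGCatttgtactg
Oxct1, 5p match, chr15:4154735-4154761: gcattcatcaGGGATGCttcctcagaa

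The Bdh1 matches lie in the 1807-base 3′ UTR of transcript ENSMUST00000115227, and the Oxct1 match in the 1575-base 3′ UTR of ENSMUST00000110690. The latter is 1 of 5 Oxct1 transcripts and the only one with the match. Its group means were 44.7% to 53.4% of Oxct1 counts and 19.3% to 24.3% of Oxct1 TPM. Among 12984 genes with a mean of at least 10 counts and an annotated 3′ UTR, 17% held the 3p letters and 9.21% the 5p letters. A match describes the letters and not binding. Bdh1 and Oxct1 moved in opposite directions between genotypes in BMM, and in the same direction in OC, the contrast used to choose the genes, as given below. A link between the matches and these levels was not tested.

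Depth ran from 14118972 to 26347581 estimated counts per library, and a member had between 97 and 28372 counts in a library, the lowest for Bdh1 in WT BMM. The 10 osteoclast markers checked the OC label: their summed level was 30440 to 32640 CPM in WT OC but 424 to 773 CPM in null OC, against 307 to 393 CPM in null BMM. Here CPM is counts per 1000000 after TMM scaling. Thus cultures labelled null osteoclasts carried few osteoclast transcripts, with the osteoclast protease gene Ctsk at 80.3 ± 69.6 CPM (SD, n = 6) against 13908 ± 584 CPM in WT OC. The osteoclast phosphatase gene Acp5 was at 96.1 ± 35.4 against 7095 ± 156 CPM. In null BMM Ctsk averaged 3.99 CPM and Acp5 39.0 CPM. Much of the marker sum in both null groups was Mmp9, at 262 CPM on average in null OC and 186 CPM in null BMM, against 6861 CPM in WT OC. Of the 10 osteoclast markers 7 were higher in null OC than in null BMM (median log2 1.15), where 6.78% of all genes were higher. The 8 macrophage markers summed to 10490 to 14050 CPM in null OC and to 4989 to 5379 CPM in WT OC (5020 to 5844 and 4006 to 4357 CPM without Adgre1, a choice made after seeing the data), 6 of 8 being higher, with the M-CSF receptor gene Csf1r at 1753 ± 243 and 1333 ± 75.6 CPM. The 10 neutrophil markers summed to at most 21.2 CPM in any library, with Ly6g at 0 CPM in 35 of 36, while S100a8 averaged 10.8 CPM in null BMM and 0.163 CPM in WT BMM. In bulk RNA, fewer cells of a type and less RNA per cell cannot be told apart, and this holds for every level below.

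All 9 genes had their highest mean in WT OC, and in each case every WT OC library lay above every library of the next group. No share of all genes with this pattern was worked out. Between WT OC and WT BMM 50.3% of all genes did not overlap, and 45.3% between the genotypes in OC. The WT OC libraries also entered the contrast that chose the genes, so nothing is read from this count. Bdh1 spanned the widest range, 43.8-fold from WT BMM to WT OC, and Suclg1 the narrowest, 1.96-fold from null OC to WT OC. The median coefficient of variation of the 9 genes within a group ran from 3.45% in WT OC to 11.3% in null BMM.

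**Figure D1:**
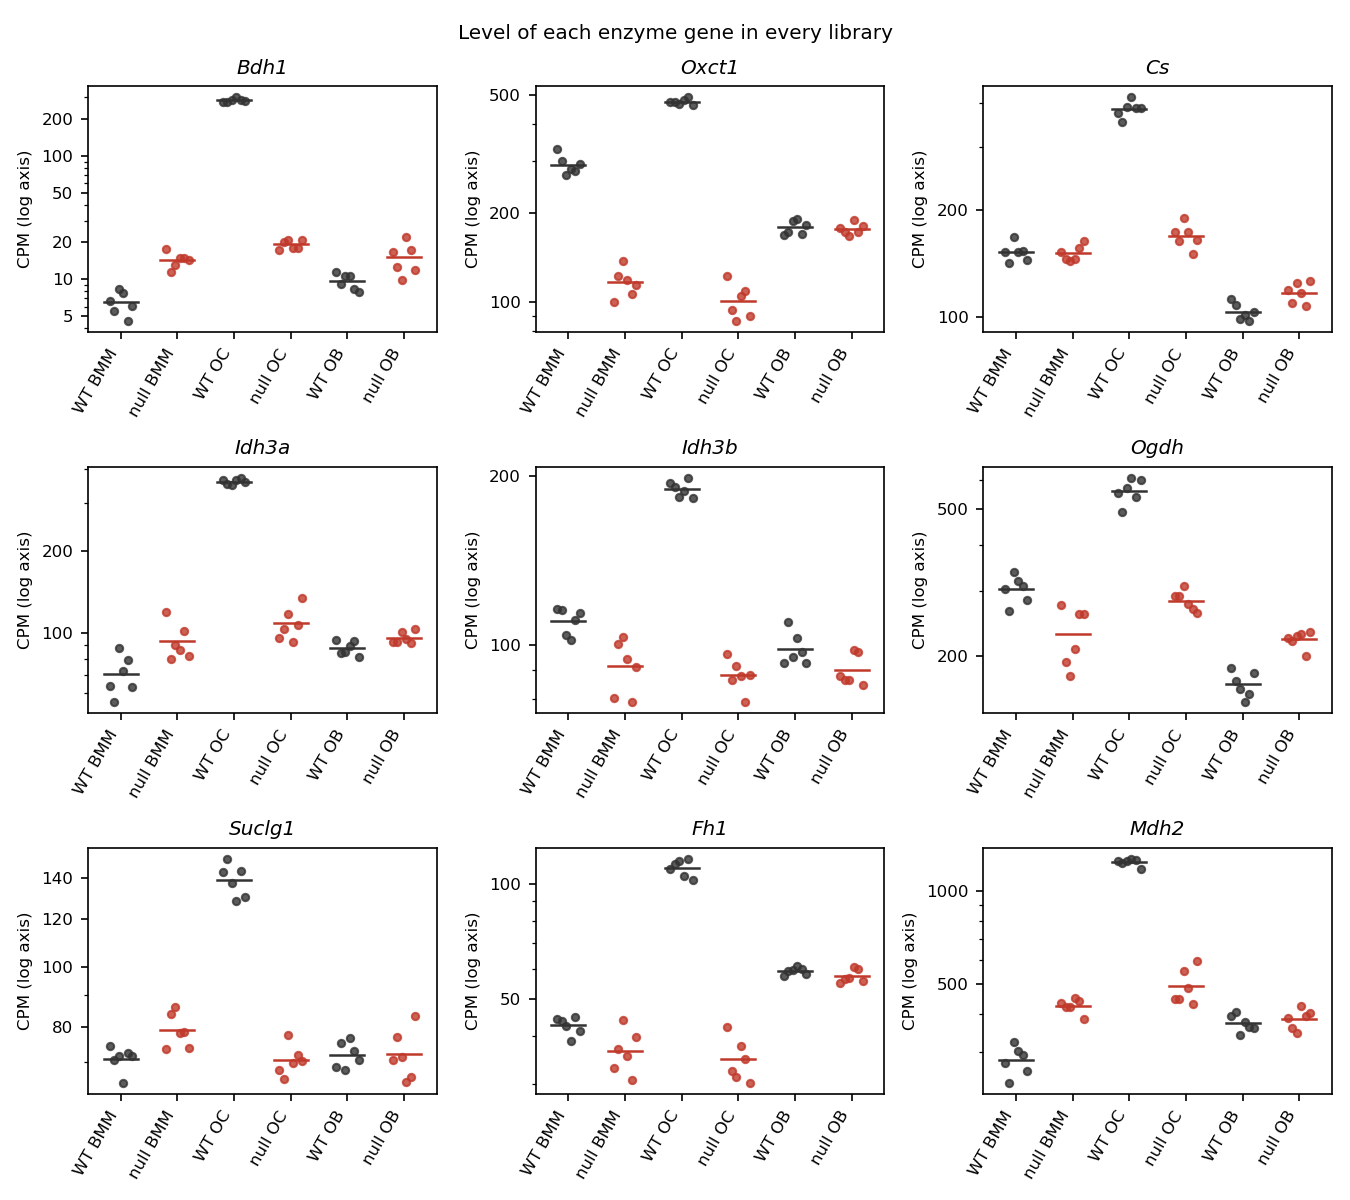
Level of each gene in CPM on log axes (which differ between panels) in the 36 libraries; each point is a library, black for WT and red for null, and each bar is the mean of 6. In every panel the 6 WT OC points sit above all others, and the null OC points sit near the null BMM points.

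Bdh1, on chromosome 16 (31422280 to 31458901, plus strand, GRCm38; ENSMUSG00000046598), encodes β-hydroxybutyrate dehydrogenase. In WT BMM its lowest, median and highest library had 4.61, 6.38 and 8.35 CPM, and in null BMM 11.4, 14.5 and 17.6 CPM. The osteoclast cultures had 275, 284 and 301 CPM with the WT genotype, and 17.3, 19.1 and 21.0 CPM with the null one. Osteoblast cultures were low as well, at 7.86, 9.88 and 11.4 CPM in WT and 9.80, 14.6 and 22.1 CPM in null. Below WT OC, neighbours in the order null OC, null OB, null BMM, WT OB and WT BMM overlapped.

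Oxct1, on chromosome 15 (4026383 to 4155344, plus strand; ENSMUSG00000022186), encodes the CoA transferase that follows BDH1. Its lowest, median and highest libraries in BMM had 268, 288 and 328 CPM for WT and 100.0, 117 and 138 CPM for null. With RANK-L they had 464, 476 and 493 CPM (WT) and 86.8, 99.5 and 123 CPM (null). In OB they had 169, 178 and 191 CPM for WT and 167, 175 and 189 CPM for null. Unlike Bdh1, Oxct1 was already abundant in WT BMM, and the null BMM and null OC libraries were the lowest of all and overlapped each other.

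The question of the RANK-L cultures is how the 9 genes changed when macrophages were given the osteoclast signal. In WT cells all 9 rose, by log2 fold changes from 0.70 for Oxct1 to 5.46 for Bdh1 (edgeR quasi-likelihood test), where 60.5% of 12661 genes passed the threshold of 0.05 in either direction and 30.4% rose. The median over the 9 was 1.33, and -0.003 over all genes. None of the 9 overlapped between WT OC and WT BMM, as was the case for 50.3% of all genes. The WT OC libraries also entered the contrast in which Bdh1 was noticed, so this result is not independent of the choice of the genes and no p is given.

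Bdh1 rose 43.9-fold in WT (log2 fold change 5.46, SE 0.12). Idh3a, the catalytic subunit of the NAD-dependent isocitrate dehydrogenase, rose 5.07-fold (log2 2.34, SE 0.11). Mdh2, which turns malate into oxaloacetate, rose 4.39-fold (log2 2.14, SE 0.08). The other steps rose less: Fh1 (fumarase) by 1.36, Cs (citrate synthase, the entry step) by 1.33, Suclg1 (succinyl-CoA ligase) by 0.96, Ogdh (oxoglutarate dehydrogenase) by 0.88, and Idh3b, a regulatory partner of Idh3a, by 0.78 on the log2 scale (SE 0.06 to 0.09). The difference between Idh3a and Idh3b, subunits of 1 enzyme, was not tested.

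In null cells the same 5 days with RANK-L gave 2 of 9 past the threshold, both higher, where 12.9% of 12661 genes passed and 6.78% were higher. The null OC libraries also entered the contrast in which Bdh1 was noticed, so these values are described without a p. Ogdh went from 229 ± 41.2 to 283 ± 17.3 CPM (log2 0.31, SE 0.09). Bdh1 went from 14.3 ± 2.08 to 19.2 ± 1.59 CPM (log2 0.42, SE 0.10), a call that was lost with an offset for average transcript length (log2 0.30). The libraries of null BMM and null OC overlapped for all 9 genes, and 2.23% of all genes did not overlap. Among the 7 others, Idh3a was at 0.22 (SE 0.10) and Mdh2 at 0.22 (SE 0.08) on the log2 scale without passing. The count past the threshold was 5 in place of 2 with DESeq2 and in a single fit of all 36 libraries. The share of all genes past it also rose, to 16.6% with DESeq2 and 14.7% in the single fit.

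The difference between the genotypes in this response, the null change minus the WT change, is given without a test because it contains the contrast that chose the genes. It was -5.03 (SE 0.15) for Bdh1, -2.12 (SE 0.15) for Idh3a and -1.92 (SE 0.11) for Mdh2. For Fh1 it was -1.43, for Cs -1.16, for Suclg1 -1.12, for Oxct1 -0.90, for Idh3b -0.82 and for Ogdh -0.57 on the log2 scale. All 9 were below 0 and past the threshold of the fit, where 51.4% of genes passed and 26.1% were lower, and nothing is read from that count.

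**Figure D2:**
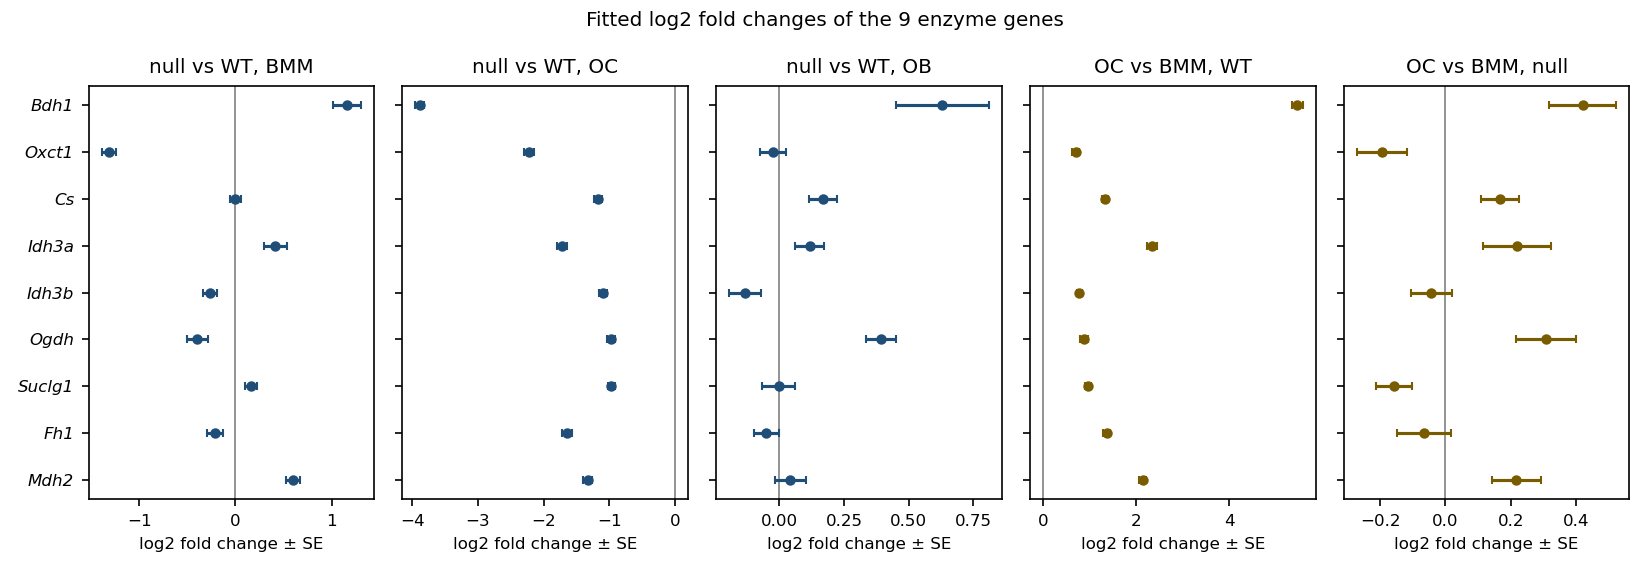
Fitted log2 fold changes (points) with their standard errors (bars) for the 9 genes in 5 comparisons; the horizontal axes differ between panels. Values sit on both sides of 0 for null against WT in BMM, run from -0.13 for Idh3b to 0.63 for Bdh1 in OB, and lie at -0.97 or below in OC. In the WT response to RANK-L all lie at 0.70 or above.

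Between genotypes in OC the 9 genes are described only, since this contrast was used to choose them. Bdh1 was 14.8-fold lower in null OC (log2 fold change -3.88, SE 0.06), and Oxct1 4.67-fold lower (-2.22, SE 0.08). In the TCA cycle the values were -1.72 for Idh3a, -1.65 for Fh1, -1.33 for Mdh2, -1.17 for Cs, -1.10 for Idh3b, -0.98 for Ogdh and -0.97 for Suclg1 (SE 0.05 to 0.08). All 9 were past the threshold and lower, where 65.6% of 12121 genes passed and 33.1% were lower. None overlapped between the genotypes, as was so for 45.3% of genes, and nothing is read from these counts. The Ctsk and marker levels given above moved in the same libraries, and their part in these values was not tested.

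Per OC library, Mdh2 had 1183, 1256 and 1273 CPM (lowest, median, highest) for WT and 430, 466 and 596 CPM for null. Idh3a had 348, 361 and 370 CPM for WT and 92.8, 105 and 134 CPM for null. Replicate 6 of null OC was the highest of its group for Mdh2, Idh3a and Bdh1, and it was also the highest for the osteoclast marker sum (773 CPM) and the osteoblast marker sum (267 CPM). With each library left out in turn, the log2 fold change ran from -3.91 to -3.85 for Bdh1, from -1.79 to -1.68 for Idh3a and from -1.39 to -1.27 for Mdh2.

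Macrophages kept in M-CSF alone for the same 5 days tell how the genotypes differed without RANK-L, in libraries outside the contrast in which Bdh1 was noticed. Earlier results of these data were known when the genes were chosen. The p-values for members in BMM and OB are therefore not fully independent of that choice. Bdh1 and Mdh2 were higher in null BMM, Oxct1 was lower, and smaller differences went both ways. In all, 8 of 9 passed the threshold, 4 higher and 4 lower, beside 52.3% of 11925 genes, 27.0% higher and 25.4% lower. The median was -0.001 over the 9 genes and 0.02 over all genes.

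Oxct1 fell from 292 ± 21.2 to 117 ± 13.2 CPM from WT to null BMM, with no overlap (2.48-fold, log2 fold change -1.31, SE 0.08, edgeR adjusted p 7.84e-10). Bdh1 rose from 6.49 ± 1.39 to 14.3 ± 2.08 CPM, with no overlap (log2 1.16, SE 0.15, adjusted p 8.24e-06). Mdh2 rose from 283 ± 30.7 to 426 ± 22.5 CPM, with no overlap (log2 0.60, SE 0.07, adjusted p 4.97e-06). These 3 of 9 genes were the ones without overlap, beside 30.9% of all genes. The 2 enzymes of ketone body use therefore went in opposite directions in null macrophages.

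Idh3a rose from 70.6 ± 12.0 CPM in WT macrophages to 93.3 ± 14.7 CPM in null ones (log2 0.41, SE 0.12, edgeR adjusted p 0.00898). Its partner Idh3b fell from 110 ± 5.92 to 91.5 ± 10.1 CPM (-0.26, SE 0.07, adjusted p 0.00707), and Ogdh from 303 ± 25.9 to 229 ± 41.2 CPM (-0.39, SE 0.11, adjusted p 0.00623). The libraries of the 2 genotypes overlapped for all 3 of these genes. Suclg1 (log2 0.16, adjusted p 0.0324) and Fh1 (-0.21, adjusted p 0.0481) passed narrowly, and when single libraries were dropped their calls were lost in 7 and 8 of 12 fits. Cs, at 151 ± 7.72 against 152 ± 8.85 CPM, did not pass (log2 -0.001, SE 0.06).

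Markers of other cell types moved in BMM as well. The 8 osteoblast markers summed to 53.3 to 127 CPM in null BMM against 10.2 to 27.6 CPM in WT BMM. Much of this sum was Col1a1, at 63.1 ± 30.3 against 15.3 ± 6.11 CPM. Only 3 of the 8 could be tested, and these were higher in null BMM. The others had too few counts for a test, so the sum does not show that they moved. Of the 8 macrophage markers 5 were lower and 2 higher in null BMM (median log2 -0.72). Their sum was 12690 to 14040 CPM against 9091 to 10200 CPM in WT BMM, but 5322 to 6146 against 7334 to 8128 CPM without Adgre1, which was at 7459 ± 808 and 1888 ± 122 CPM. The 10 osteoclast markers summed to 307 to 393 CPM in null BMM and to 220 to 245 CPM in WT BMM. Of the 7 that could be tested 4 were lower and 2 higher in null BMM. The higher sum rested on 1 marker, Mmp9, which averaged 186 CPM in null and 0.336 CPM in WT BMM. Among the 4 lower, Atp6v0d2 averaged 40.6 against 90.0 CPM and Nfatc1 59.3 against 103 CPM in WT BMM. Ctsk averaged 3.99 CPM in null and 7.83 CPM in WT BMM, and Acp5 39.0 and 8.37 CPM. The part of these markers in the enzyme results was not tested.

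In osteoblast cultures 3 of 9 genes passed the threshold, all higher in null OB, beside 32.5% of 13607 genes in either direction and 15.5% higher. Ogdh, at 150.5, 167 and 186 CPM (lowest, median, highest) in WT OB and at 200, 225 and 232 CPM in null OB, was the gene without overlap (log2 0.39, SE 0.06, edgeR adjusted p 1.87e-04), as were 15.8% of all genes. Bdh1 was at 9.67 ± 1.40 CPM in WT OB and 15.0 ± 4.51 CPM in null OB (log2 0.63, SE 0.18, adjusted p 0.0149), with overlapping libraries. Cs was at 104 ± 5.68 and 117 ± 7.79 CPM (log2 0.17, SE 0.06, adjusted p 0.0299), a call lost in 7 of the 12 fits without a library. The other 6 genes did not pass, with log2 values from -0.13 for Idh3b to 0.12 for Idh3a and SE of 0.05 to 0.06.

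The OB cultures also contained osteoclast transcripts, with Ctsk at 1930 ± 162 CPM in WT and 2426 ± 347 CPM in null, and the osteoclast sum reached 4135 to 5272 and 4980 to 7713 CPM. Replicate 4 of null OB had both the highest Bdh1 (22.1 CPM) and the highest osteoclast sum, and replicate 3 had the lowest of both in that group (9.80 and 4980 CPM). The macrophage sum was lower in null OB, at 2197 to 2643 against 2965 to 3501 CPM, with 7 of 8 markers lower, and the osteoblast sum higher, at 96250 to 115800 against 54010 to 78110 CPM, with Col1a1 at 64341 ± 5329 against 36134 ± 6193 CPM. The part of these markers in the OB values was not tested.

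An offset for each library's trend with transcript length and GC content brought the count in OB from 3 to 5 genes, adding Idh3a (log2 0.16) and Mdh2 (0.20), while the share of all genes past the threshold went from 32.5% to 18.8%.

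Whether the genotype effect differed between osteoblast cultures and macrophages was tested in a single fit of all 36 libraries, with no OC library in the contrast. It did for 4 of 9 genes, beside 45.9% of 14268 genes. Oxct1 had the largest difference among the 9, the OB effect minus the BMM effect being 1.30 (SE 0.10, edgeR adjusted p 1.77e-13), with effects of -1.31 in BMM and -0.02 in OB. For Ogdh it was 0.80 (SE 0.12, adjusted p 5.51e-07), for Mdh2 -0.54 (SE 0.10, adjusted p 3.55e-05) and for Bdh1 -0.52 (SE 0.20, adjusted p 0.0332). The Bdh1 call was lost without a filter on low counts (adjusted p 0.05303), with the length offset (0.0658) and with the length and GC offset (0.133). Ogdh was the gene of these 4 whose effect passed the threshold with opposite signs in BMM and OB.

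Among WT cells, osteoblast cultures had less of all 9 genes than OC, by log2 values from -0.89 for Fh1 to -4.88 for Bdh1, described without a p since the WT OC libraries entered the choice, where 77.9% of 14268 genes passed and 36.7% were lower. Against BMM, 8 of 9 differed, 4 higher and 4 lower, beside 76.8% of genes, and 5 of 9 did not overlap, beside 64.3%. Fh1 (log2 0.47), Mdh2 (0.40) and Bdh1 (0.58) were higher in WT OB, and Oxct1 (-0.70), Ogdh (-0.85) and Cs (-0.55) were lower, with edgeR adjusted p from 1.13e-11 to 5.72e-04. Idh3a was higher (0.32), and Idh3b was lower by a small amount (-0.17) that did not pass with DESeq2 or RLE scaling.

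To compare genes with one another, the deposited TPM, which is scaled by transcript length, was used. Mdh2 had the highest mean of the 9 in every group, from 326 ± 37.2 TPM in WT BMM to 1566 ± 89.7 TPM in WT OC. Bdh1 was the lowest in 5 groups, from 7.96 ± 2.35 TPM in WT BMM to 18.5 ± 2.06 TPM in null OC. In WT OC it was at 293 ± 18.5 TPM, below Oxct1 at 496 ± 28.2 TPM and above Idh3a at 249 ± 12.4 TPM, with no overlap. That place rests on a retained-intron transcript of 438 bases, ENSMUST00000128286, which held 83.7 ± 7.59 TPM. Over protein-coding transcripts alone, an alternative added after seeing the data, Bdh1 was at 209 ± 16.7 TPM in WT OC, below Idh3a and Cs (223 ± 20.9 TPM) on average and overlapping both, and it remained the lowest of the 9 in the other 5 groups.

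Consequently the ratio of Oxct1 to Bdh1 TPM, which does not depend on the scaling of a library, moved widely. It was 38.9 ± 12.4 in WT BMM and 1.70 ± 0.0651 in WT OC. In null cells it was 7.13 ± 1.88 in BMM and 4.93 ± 0.956 in OC, and the ranges (4.95 to 9.71 and 4.002 to 6.35) overlapped. In OB it was 15.9 ± 1.88 in WT and 11.4 ± 2.64 in null. Over protein-coding transcripts alone it was 42.6 ± 14.7 in WT BMM, 1.56 ± 0.0546 in WT OC, 6.61 ± 1.49 in null BMM and 4.60 ± 1.15 in null OC. By either measure the ratio was nearest to 1 in WT OC.

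Within the TCA cycle, Idh3a was 0.388 ± 0.0903 of Idh3b in WT BMM and 1.10 ± 0.0539 of it in WT OC by TPM. In null BMM and null OC this ratio was 0.6247 ± 0.177 and 0.724 ± 0.135. Mdh2 made up 39.9% ± 1.88 of the summed TPM of the 7 TCA genes in WT BMM and 50.3% to 56.2% on average in the other groups.

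The summed TPM of the 7 TCA genes was 815 ± 58.1 in WT BMM and 2786 ± 156 in WT OC, a log2 difference of 1.77, with no overlap. No p is given for this sum, since its members were chosen with results known. In null cells it was 858 ± 66.0 in BMM and 988 ± 49.0 in OC. Between genotypes in BMM the log2 difference was 0.07 and the libraries overlapped. In OB it was 870 ± 38.5 in WT and 1028 ± 62.1 in null with no overlap (log2 0.24, and 0.11 when CPM was summed instead of TPM). Between genotypes in OC the log2 difference was -1.50 in TPM and -1.26 in CPM.

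**Figure D3:**
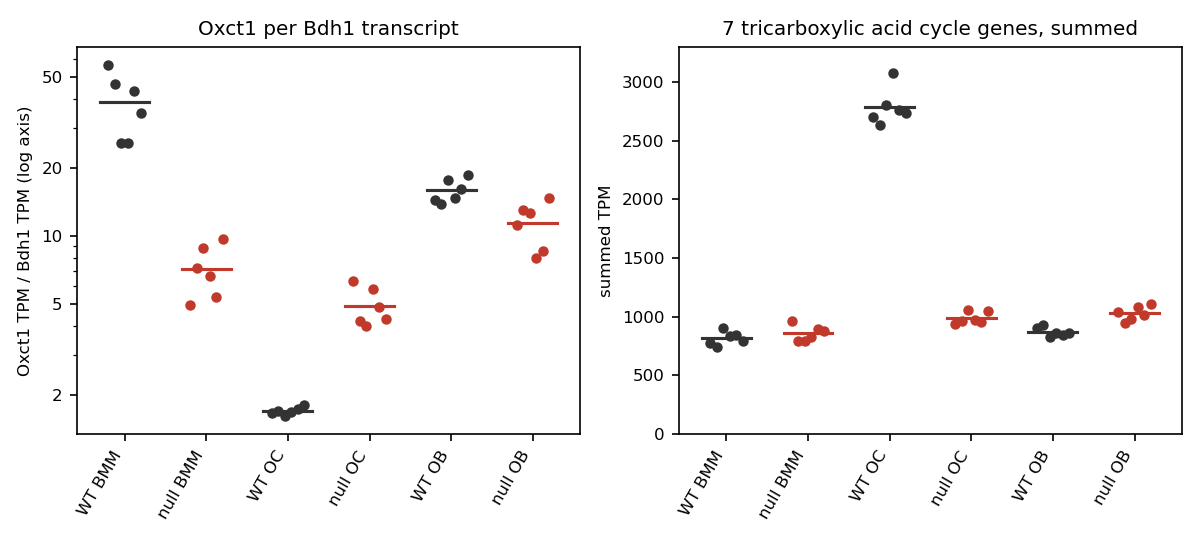
Left, Oxct1 TPM divided by Bdh1 TPM on a log axis; right, summed TPM of the 7 TCA genes from 0; each point is a library and each bar the mean of 6, black for WT and red for null. The 6 WT OC libraries lie between 1.61 and 1.80 on the left and between 2632 and 3081 on the right, apart from all others on both.

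The deposited tables are per transcript, so shifts between transcripts of a gene could also be read. Of the 9 genes, 6 had at least 2 transcripts with 10% of the gene's TPM in some group (Idh3b, Ogdh, Fh1, Mdh2, Bdh1 and Oxct1). The share of the leading transcript was compared in 18 tests (null against WT in BMM and OB, and OC against BMM in WT). None had an adjusted p under 0.05 by the exact permutation test, and 3 had an unadjusted p under 0.05.

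Ogdh had the largest of these 3 shifts: its leading transcript, ENSMUST00000003461, held 67.6% ± 3.56 of Ogdh TPM in WT BMM and 61.1% ± 2.17 in WT OC (exact permutation p = 0.00866, adjusted p = 0.0779). A protein-coding transcript of near-equal length, ENSMUST00000081894, held 14.9% ± 1.40 and 23.7% ± 2.77, with no overlap between the groups. With shares of estimated counts the leading transcript differed by -9.06 percentage points (exact permutation, adjusted p = 0.0390).

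For Idh3b the leading transcript was at 92.1% ± 2.80 in WT OB and 87.8% ± 2.04 in null OB (exact permutation p = 0.0130, adjusted p = 0.0779), and by counts the difference was -1.14 points (adjusted p = 0.0390). The third shift was that of Ogdh between null and WT BMM, 5.58 points (exact permutation p = 0.0108, adjusted p = 0.0779).

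The Bdh1 transcript that holds the 3p seed letters, ENSMUST00000115227, took 43.1% ± 15.7 of Bdh1 counts in WT BMM and 44.6% ± 17.7 in null BMM. It took 59.6% ± 1.25 in WT OC and 52.6% ± 7.98 in null OC, and 49.1% ± 7.92 and 50.7% ± 5.40 in WT and null OB. The spread was widest in the BMM groups, where all of Bdh1 had 97 to 148 counts per library in WT and 212 to 331 in null, beside 150 to 252 in WT OB.

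Across the 36 libraries the genes whose log2 CPM followed Bdh1 most closely, among 12630 with a mean of at least 1 CPM, were Snx10 (Pearson r = 0.987), Mdh2 (0.981), G3bp1 (0.980), Cyc1 (0.979) and Idh3a (0.978). These values are a description, since libraries share group, depth and composition, and WT OC stands apart for all of them: Snx10, a sorting nexin gene, averaged 935 CPM in WT OC against 240 CPM in null OC, and Cyc1, cytochrome c1 of the respiratory chain, at 419 and 145 CPM. Over the 24 BMM and OC libraries 3 of the 5, Snx10, Cyc1 and G3bp1, stayed among the 5 closest. The closest there was the osteoclast marker Acp5 (r = 0.992, and 0.657 over all 36 libraries). Idh3a (0.986) and Mdh2 (0.986) took ranks 10 and 11. Oxct1 was the least alike of the 9 genes, at r = 0.554.

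The other genes of the pathway were taken from lists that hold the remaining TCA subunits, pyruvate entry and its control, other ketone body genes, cytosolic partners and carriers, itaconate genes and regulators of mitochondrial biogenesis, 55 genes in all. In OC 37 of 51 tested were lower in null and 9 higher, where 65.6% of all genes passed and 33.1% were lower. In BMM 17 of 51 were lower and 13 higher, close to the 52.3% of all genes that passed. In OB 6 of 52 were lower and 10 higher, close to the 32.5% of all genes.

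**Figure D4:**
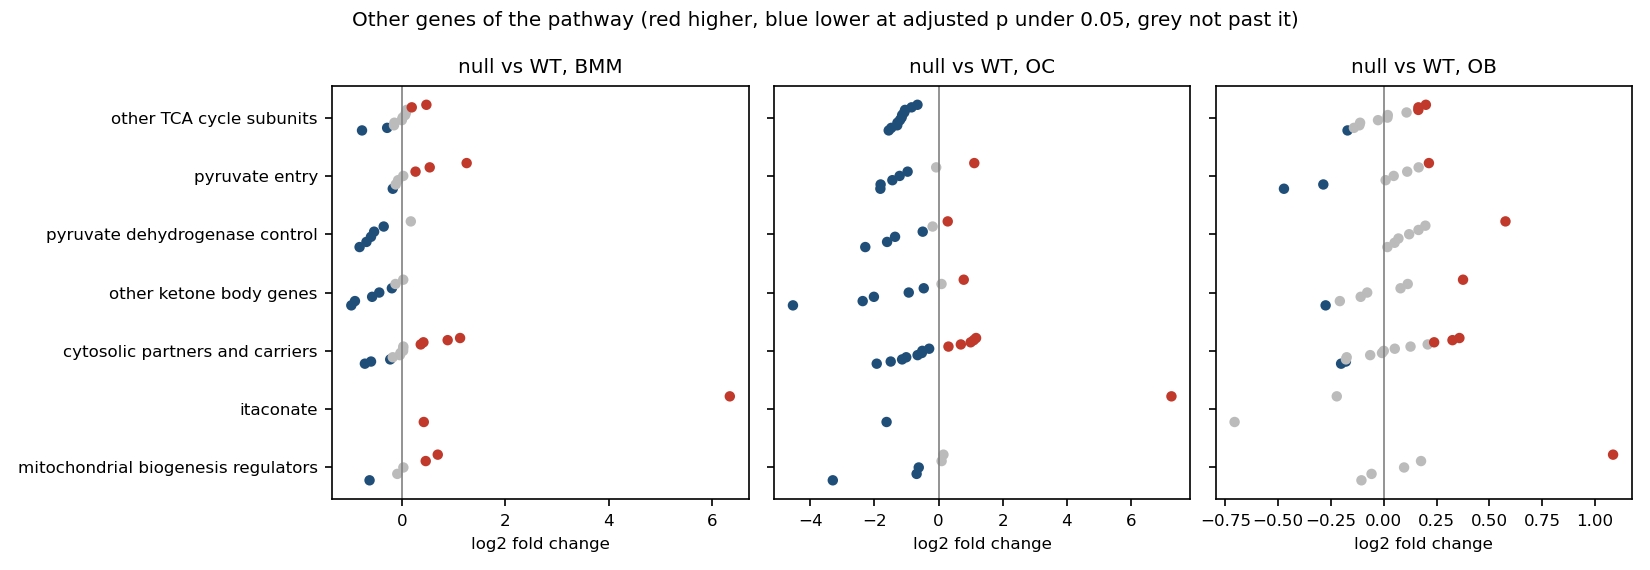
Log2 fold change of each tested gene of the 7 lists, null against WT, in BMM, OC and OB; red points were higher and blue points lower at an edgeR adjusted p under 0.05, grey points did not pass, and the horizontal axes differ. In OC all 11 other TCA subunits lie below 0, while in OB they lie between -0.2 and 0.2.

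All 11 other TCA subunits were lower in null OC (median log2 -1.15, against -0.03 over all genes, of which 33.1% were lower). All 11 were higher in WT OC than in WT BMM (median 1.24), where 30.4% of genes were higher. In null cells 0 of the 11 passed between OC and BMM with edgeR (1 at an unadjusted p under 0.05), 0 with voom and 1 with DESeq2, where 12.9% of genes passed with edgeR. Dlst, a core subunit of the oxoglutarate dehydrogenase complex that also contains OGDH, was at 36.1 ± 6.14 CPM in null OC and 107 ± 4.50 CPM in WT OC (log2 -1.55, edgeR adjusted p 2.39e-10). In BMM 2 were higher and 2 lower in null, where 52.3% of all genes passed. They were led by Suclg2 (-0.77), a partner of Suclg1, and Sdhb (0.48), a succinate dehydrogenase subunit. In OB 3 were higher and 1 lower, where 32.5% of all genes passed, with Sdha at 0.20 and Sdhd at -0.17.

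Pyruvate enters the cycle through the pyruvate dehydrogenase complex, and 5 of 7 genes of this list were lower in null OC, where 33.1% of all genes were, led by its subunits Pdhb and Pdha1 (both -1.81, edgeR adjusted p 1.03e-13 and 1.39e-11). Pcx, pyruvate carboxylase, which makes oxaloacetate, was higher in null OC (1.12) and in null BMM, at 26.1 ± 4.62 against 11.02 ± 1.65 CPM (1.25, adjusted p 7.64e-07). Among the kinases and phosphatases that control the complex, 4 of 6 were lower in null OC (33.1% of all genes), led by Pdk3 (-2.28) and Pdk1 (-1.60), and 5 of 6 in null BMM (25.4% of all genes), led by Pdp1 (-0.82) and Pdpr (-0.68). In null OB Pdpr was higher (0.58), and the pyruvate carrier subunits Mpc1 (-0.47) and Mpc2 (-0.29) were lower.

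Of the other ketone body genes, 7 of 9 could be tested. Bdh2, a cytosolic dehydrogenase related in name to Bdh1, had 39.1, 51.1 and 61.4 CPM (lowest, median, highest) in osteoclast cultures of WT mice and 1.22, 1.94 and 3.71 CPM in those of null mice (log2 -4.54, SE 0.22, edgeR adjusted p 2.06e-11). Among macrophages it was at 2.20 ± 0.373 CPM (WT) and 2.01 ± 0.577 CPM (null), a difference that did not pass (log2 -0.12, SE 0.22). Acat1, the thiolase that completes ketone body breakdown, went from 228 ± 10.8 CPM in WT OC to 56.0 ± 7.80 CPM in null OC (-2.02, adjusted p 1.30e-12), and it was lower in null BMM (-0.57, adjusted p 2.51e-06).

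The monocarboxylate transporter genes Slc16a7 (-2.37), Slc16a1 (-0.93) and Slc16a6 (-0.46) were lower in null OC, and all 3 were lower in null BMM (-0.91, -0.44 and -0.98). Aacs, which uses acetoacetate in the cytosol for lipid synthesis, was higher in null OC (0.79, edgeR adjusted p 2.87e-07). Oxct2a, a relative of Oxct1, was at most 0.121 CPM in any library. In OB Slc16a7 was higher in null (0.38), and 5 of the 7 did not pass, where 32.5% of all genes passed.

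Acod1 makes itaconate from the TCA intermediate cis-aconitate in activated macrophages. It went from 1.59 ± 0.263 CPM in WT BMM to 130 ± 17.5 CPM in null BMM, and from 0.905 ± 0.296 to 138 ± 23.4 CPM in the OC cultures (log2 7.26, SE 0.17, edgeR adjusted p 2.99e-15). In OB it was at most 1.62 CPM. Clybl, which degrades the itaconate product citramalyl-CoA, was higher in null BMM (0.43) and lower in null OC (-1.62).

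Among cytosolic partners and carriers, 8 of 13 were lower and 5 higher in null OC, where 65.6% of all genes passed and 33.1% were lower, led by Mdh1 (-1.93), the cytosolic counterpart of Mdh2, and Slc25a13 (-1.49), an aspartate-glutamate carrier. The 5 that were higher were Idh1 (1.17), Slc25a10 (1.10), Me1 (1.00), Slc25a1 (0.70) and Slc25a12 (0.31), named as the whole of that small group, after their values were seen. Me1, malic enzyme, and Slc25a10, the dicarboxylate carrier, were also higher in null BMM (1.13 and 0.89).

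Of the regulators of mitochondrial biogenesis, Ppargc1b, a coactivator known for its role in osteoclast mitochondria, had the largest change in OC: 71.9, 72.7 and 88.9 CPM with the WT genotype and 5.35, 7.89 and 10.005 CPM with the null one (log2 -3.30, SE 0.15, edgeR adjusted p 4.72e-12). In WT it rose between BMM and OC (log2 3.51), and in null it did not pass (-0.25, SE 0.15). It was higher in null OB (1.09, SE 0.18, adjusted p 3.57e-04) and in null BMM (0.46, adjusted p 0.0141). Gabpa was lower in null BMM (-0.62) and null OC (-0.68), and Esrra was higher in null BMM (0.70).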

How the data were processed

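RNA-seq libraries of 36 cultures were deposited as a table per library of estimated counts and TPM per transcript. Per the submitters' processing notes the tools were kallisto and DESeq2, with no version given here, and the notes name the build GRCh38 although the deposited identifiers are mouse Ensembl transcripts. The authors' estimated counts are not whole reads, and the authors' deposited TPM sums to 1000000 in each library. Of 88198 transcripts 97.5% were found in GENCODE M21 (GRCm38), 88.9% of these at identical length, and transcripts not found, with 0.629% to 0.974% of a library's counts, were left out. Counts were summed per gene, rounded and tested with the quasi-likelihood test of edgeR 4.0.16 (R 4.3.3, filterByExpr, TMM, robust), with Benjamini-Hochberg adjustment over all genes tested and a threshold of 0.05. Genotype comparisons used the 12 libraries of a cell type, RANK-L comparisons 24 and those with OB and another cell type 36. Transcript shares were tested by exact two-sided permutation. Log2 CPM used a prior count of 2. Steps were tested on simulated data.

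Alternatives were DESeq2 1.42.0 and voom from limma 3.58.1 as tools, RLE as scaling, a minimum mean of 10 counts or no filter at all, a replicate block, offsets for transcript length and for length and GC trend, a fit of all libraries, and leaving out each library. No batch is named in the labels. The members, lists and tests were chosen with earlier results of these data known, and no p is given for members' levels where OC libraries enter or for sums over members. Named beside the 9 members, except a few genes that are not reported here, were the ketone body genes, Acod1, up to 2 genes of each other list per genotype comparison with the largest change past the threshold and at least 1 CPM, the 5 genes most like Bdh1 and 6 markers. Further osteoclast, macrophage and osteoblast markers were named after their values were seen. The marker lists were osteoclast, macrophage, neutrophil, osteoblast, adipocyte, endothelial and lymphoid. For each of the last 3 lists taken alone, the summed level stayed at or under 314 CPM in every library. Cs shared 8.60% of its 31-base words with Csl, which had at most 2.02 counts in a library. Suclg1 shared 1.56% with 193 other genes, which reached up to 163500 counts in a library, against a median of 1441 for Suclg1. The remaining members shared at most 0.432% with other genes.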

Additional observations from a re-analysis of the deposited data

Results flagged for a closer look

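Among the 54 sets of 6 libraries formed by the 9 genes and 6 groups, 1 had a library far from the others, and chance flags about 1 in 20 such sets. This was Mdh2 in WT OC, where replicate 6 had 1183 CPM and the nearest library 1240 CPM. It is still above every library of the other groups.

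For 4 of 9 genes the genotype effect differed between OB and BMM by the interaction test of edgeR, a share near the 45.9% of all genes that passed it. The difference, OB minus BMM, was 1.30 for Oxct1 and 0.80 for Ogdh, and it was -0.54 for Mdh2 and -0.52 for Bdh1 on the log2 scale. The Bdh1 call was lost with no filter, with the length offset and with the length and GC offset, alone or with the replicate block.

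Mdh2 and Bdh1 were higher in every null library than in every WT library in BMM and lower in every null library in OC. The OC effect minus the BMM effect was -1.92 for Mdh2 and -5.03 for Bdh1, and this difference was not tested because the choice of genes used the OC contrast.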

How the results depend on the processing

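Of the member log2 fold changes, those near 0 changed sign. Cs in BMM was 0.00643 with voom, 0.00951 with the length offset, 0.067 with the length and GC offset and 0.068 with that offset and the replicate block, and ran from -0.025 to 0.015 with a library left out. Suclg1 in OB was 0.0090 with RLE, 0.0040 with no filter, 0.0094 with DESeq2, 0.023 and 0.15 with the length offset and the length and GC offset, 0.15 with the block and that offset and 0.0048 in a fit of all libraries, and ran from -0.046 to 0.042 with a library left out. With the length and GC offset, alone and then with the block, Oxct1 in OB was 0.094 and 0.094 (0.022 with the length offset), Idh3b in OB was 0.0040 and 0.0023, Suclg1 in WT OB against BMM was -0.14 and -0.13, and its OB minus BMM interaction was 0.036 and 0.035. Shares of the leading transcript by counts in place of TPM were 0.080 points for Ogdh in OB, -0.027 for Bdh1 in OB and -0.023 for Oxct1 in WT OC against BMM. With a library left out, shares in BMM ran from -0.945 to 6.43 points for Bdh1, from -0.696 to 2.29 for Fh1 and from -2.52 to 1.12 for Idh3b.

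The members past the threshold in OB became 5 with the length and GC offset, where 18.8% of all genes passed. In null OC against null BMM they became 5 with DESeq2, 1 with the length offset and 5 in a fit of all libraries. Of all genes 16.6%, 10.5% and 14.7% passed in these settings. The summed level of the TCA genes in null against WT OC was -1.26 with CPM. All genes past the threshold in OB went from 4420 to 2563 with the length and GC offset and 2256 with the block added, and those of null OC against null BMM from 1628 to 1016 with both. The cause of these changes was not tested.

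No clear pairing by replicate number was seen, with correlations between same-numbered libraries of -0.131 to 0.103. The own number was closest for at most 3 of 6 in any pair of groups, that being WT BMM with WT OC. With 6 libraries per group this check cannot exclude a pairing. With the replicate block, Suclg1 (0.16) and Fh1 (-0.22) in BMM and Cs in OB (0.17) did not pass. Low counts limit Bdh1 outside WT OC.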
